A study of Homo sapiens with 16 samples.

Results

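The LMO2 locus was examined through the 20 kb bins that lie over the gene in build hg19, chr11:33880001-33900000 (called the first bin here) and chr11:33900001-33920000 (the second bin), and through their contacts within chr11:32900001-34900000. The rule that sets the members uses position and no measured value, but members and lists were chosen with earlier results of these data known. They are 2 of the 154795 bins into which the genome was divided, of which 122555 held enough contacts to be tested, and the window around them has 100 bins. LMO2 lies on the minus strand, so the gene runs from the second bin into the first, and bins with higher coordinates are upstream of it. In the RefSeq annotation of a later assembly, which was used for gene order only, FBXO3 is the next listed gene on the lower side and CAPRIN1 the next on the higher side. CD59, C11orf91, KIAA1549L, HIPK3, CSTF3, TCP11L1, DEPDC7 and QSER1 follow beyond FBXO3, and NAT10, ABTB2, CAT, ELF5, EHF and APIP follow beyond CAPRIN1.

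LMO2 encodes a small protein made of LIM domains, which binds no DNA itself and bridges the DNA-binding partners TAL1 and GATA1 to LDB1. This complex is required for the formation of blood and is active in erythroid cells. LMO2 is also an oncogene of T-cell leukaemia, where translocations or nearby insertions switch it on, and its distal enhancers are known to lie upstream, in the stretch towards CAPRIN1.

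All libraries came from K562, an established human erythroleukaemia line, fixed with formaldehyde. Hi-C was done inside intact nuclei: chromatin was cut with HindIII, a restriction enzyme, the ends were marked with biotin and ligated, and the joined fragments were sequenced from both ends. The groups differ only in the length of the HindIII digestion, which was 0.25, 1, 3 or 12 h. Each time has 2 replicates, so there are 8 libraries, and each was sequenced in 2 runs, of which the deeper second run in 20 kb bins gives all values unless the first run, in 50 kb bins, is named. Nothing in the labels says that replicates came from separate cultures, so p-values measure the spread between these libraries, which may be technical.

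The second run held between 62777251 contacts, in 0.25 h replicate 2, and 176412221 contacts, in 12 h replicate 1. The 12 h libraries were the deepest, so depth and digestion time moved together. The first bin had between 608 and 1718 contacts with other bins per library and the second between 602 and 2194. Median values over all tested bins were 657 and 2223 in the shallowest and the deepest library. The share of contacts inside a bin falls with digestion time over most of the genome, so the changes in LMO2 are read against those of all bins.

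The strongest contacts of LMO2 lay upstream. The signal at each pair of bins is given as observed over expected, the balanced contact signal divided by its mean over all autosomal pairs at the same distance, so that 1 is the level of an average pair. The first bin met chr11:33980001-34000000, 100 kb upstream, at 5.81 ± 0.42 times the expected signal (SD, n = 8 libraries). The second bin met the same partner at 2.81 ± 0.42 times (SD, n = 8), and the next partner, chr11:34000001-34020000, was met at 3.99 ± 0.71 times by the first bin and at 1.71 ± 0.12 times by the second.

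By library, the first bin and the partner at chr11:33980001-34000000 stood at 5.55 and 5.07 times the expected signal after 0.25 h, 5.97 and 6.36 after 1 h, 5.68 and 5.76 after 3 h, and 5.77 and 6.32 after 12 h (replicates 1 and 2). These ratios rest on 96 and 64 contacts after 0.25 h, 115 and 76 after 1 h, 130 and 93 after 3 h, and 135 and 135 after 12 h. The pair was far above 1 in every library. The ranges of 0.25 h and 12 h did not overlap, although by a small margin, and limma did not call the pair between these times (adjusted p = 0.822). That order depends on the scale. Balanced totals include contacts inside a bin, but whether this sets the order was not tested. The first bin had 966 and 608 contacts with other bins after 0.25 h and 1718 and 1528 after 12 h. As a share of those, the pair was higher in both 0.25 h libraries than in both 12 h libraries. Of 134126 valid pairs at this distance in the genome, 0.0224% had a mean at least as high. The partner was picked for its high ratio in these same libraries, so this percentage is a description and not a test.

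The second bin and the partner at chr11:33980001-34000000 stood at 2.68 and 3.35 after 0.25 h, 3.28 and 2.49 after 1 h, 2.54 and 2.89 after 3 h, and 2.14 and 3.07 after 12 h. The first bin exceeded the second at this partner in 8 of 8 libraries, and also at chr11:34000001-34020000 in 8 of 8. At chr11:33940001-33960000, 60 kb upstream of the first bin, the order turned: the first bin stood at 1.42 ± 0.34 and the second at 1.69 ± 0.18 (SD, n = 8), with the first higher in 1 of 8 libraries. The higher ratio of the first bin was thus seen at the leading partners and not at every upstream partner: at chr11:34440001-34460000, for example, it stood at 1.08 and the second at 1.50, with the first higher in 2 of 8 libraries.

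Over both LMO2 bins together, the mean ratio was 4.31 ± 0.26 at chr11:33980001-34000000, with a range of 3.95 to 4.70, and 2.85 ± 0.33 at chr11:34000001-34020000, with a range of 2.26 to 3.25 (SD, n = 8). Without balancing, that is with recovered contacts over their expected number, the means were 4.77 and 4.22, so both partners stayed the leading ones. Balancing mattered for the others. The partner between LMO2 and these, chr11:33960001-33980000, stood at 2.83 ± 0.31 when balanced but at 0.479 when not. That bin had a median of 293.5 contacts with other bins per library, against 1517 in the median bin of the window.

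Of the 10 partners with the highest balanced ratios at least 40 kb away, 5 fell below 1 without balancing, those starting at 33960001, 34060001 (1.83 balanced, 0.726 not), 33220001 (1.57 and 0.377), 34120001 (1.40 and 0.871) and 34380001 (1.37 and 0.647). The partner at chr11:33220001-33240000 rested on 0 to 5 contacts per library and was above 1 in 5 of 8 libraries. That at chr11:34380001-34400000 rested on 1 to 12 contacts, ranged from 0.31 to 2.14 and was above 1 in 6 of 8 libraries. The partners starting at 33940001 (1.55 balanced, 1.26 not), 34440001 (1.29 and 1.61) and 34020001 (1.26 and 1.10) kept above 1 on either scale. Of these 10 partners, 9 lie upstream of LMO2, but the list depends on balancing. The upstream partner at chr11:34080001-34100000, for example, was outside it with 1.13 balanced and 1.99 not.

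In the first sequencing run the same upstream contacts were seen with coarser bins. The 50 kb bin chr11:33850001-33900000, which contains the first bin and 30 kb beyond it, stood at 3.32 times the expected signal with chr11:33950001-34000000 (range 2.14 to 3.95, 240 contacts in all) and at 3.81 times with chr11:34000001-34050000 (range 2.78 to 4.62, 301 contacts). Both were above 1 in 8 of 8 libraries. The bin chr11:33900001-33950000, which contains the second bin, stood lower with the same partners, at 1.47 and 1.05. Both runs read the same 8 libraries and are not independent samples.

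**Figure D1:**
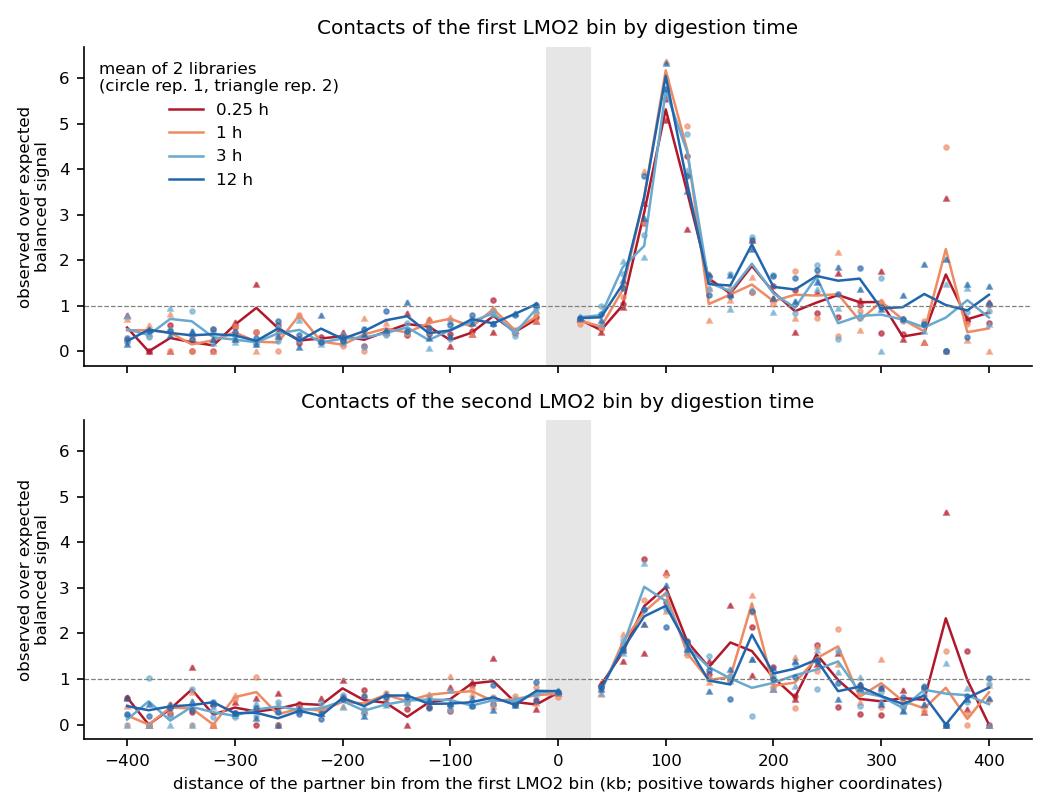
Observed over expected signal (vertical axis) of the first LMO2 bin (top) and the second (bottom) against the distance of the partner bin in kb (horizontal axis, positive upstream of LMO2), with a line for the mean of 2 libraries at each digestion time, a circle for replicate 1, a triangle for replicate 2, and the LMO2 bins shaded. The partner drawn at 100 kb has a mean of 5.81 for the first bin, where it is the highest at every digestion time, and of 2.81 for the second bin, from which it lies 80 kb away.

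LMO2 had more contacts upstream than downstream in every library. At 40 to 200 kb from the first bin, the mean ratio was 2.31 ± 0.17 upstream, with a range of 2.09 to 2.58 over libraries, and 0.501 ± 0.063 downstream, with a range of 0.424 to 0.596 (SD, n = 8). The second bin stood at 1.65 ± 0.079 upstream and 0.552 ± 0.058 downstream. At 220 to 500 kb the values were 0.993 ± 0.283 and 0.407 ± 0.087 upstream and downstream of the first bin, and 0.791 ± 0.157 and 0.376 ± 0.078 for the second. At 520 to 1000 kb the sides were close together, at 0.627 ± 0.082 upstream and 0.663 ± 0.155 downstream for the first bin and 0.904 ± 0.175 and 0.784 ± 0.166 for the second.

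Counted as contacts, 66.5% and 65.5% of the contacts of LMO2 within 1 Mb lay on the upstream side after 0.25 h, 65.7% and 64.3% after 1 h, 68.0% and 65.8% after 3 h, and 64.7% and 66.0% after 12 h. The times overlapped, and the log2 ratio of the sides showed no trend with log2 digestion time (Spearman's rho 0.05, Pearson's r -0.02, exact two-sided permutation p = 0.946 and 0.963, n = 8 libraries). In limma across all bins, the change from 12 h to 0.25 h was 0.06 (log2, SE 0.10) for the first bin and 0.02 (SE 0.10) for the second, with adjusted p of 0.807 and 0.952, while 0.918% of all bins passed.

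The bins of LMO2 lay between a pair of dips in insulation. The insulation score is the log2 of the mean balanced signal that crosses a bin, taken between the 200 kb on its left and the 200 kb on its right, over the chromosome's mean. Low scores mark bins that few contacts span. The nearest dip downstream was at chr11:33800001-33820000, 80 kb from the first bin, with a score of -0.48 ± 0.06 (SD, n = 8), and the nearest upstream was at chr11:34140001-34160000, 240 kb from the second bin, with -0.49 ± 0.15. The deepest of the 5 dips in the window was at chr11:33380001-33400000, with -0.66 ± 0.06. The upstream dip varied most between libraries, from -0.68 to -0.20.

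The first bin had insulation scores of 0.10 and 0.13 after 0.25 h, 0.12 and 0.19 after 1 h, 0.09 and 0.05 after 3 h, and 0.08 and 0.09 after 12 h. The second had 0.43 and 0.40, 0.45 and 0.52, 0.48 and 0.36, and 0.43 and 0.45 at the same times. In these 20 kb bins LMO2 was not at a dip, the second bin stood above the first in every library, and the times were close together. Medians over all bins were between -0.05 and -0.04. Scores over both bins showed no trend with log2 hours (rho -0.20, r -0.21, exact two-sided permutation p = 0.672 and 0.675, n = 8). In the first run, with 50 kb bins, they went the other way, with means of 0.11 ± 0.05, 0.21 ± 0.15, 0.28 ± 0.19 and 0.36 ± 0.11 over the 4 times in order (SD, n = 2 each) and a rho of 0.73 (exact permutation p = 0.0548, n = 8). There the bin that holds the first LMO2 bin had negative scores, with means of -0.34, -0.34, -0.21 and -0.17.

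Between 0.25 h and 12 h, limma gave differences of 0.03 (log2, SE 0.05, adjusted p = 0.880) for the first bin and -0.03 (SE 0.05, adjusted p = 0.911) for the second. No bin of 121518 passed (0.0%), and 9678 had an unadjusted p under 0.05. Insulation computed on contacts without balancing was higher at 0.25 h than at 12 h, by 0.20 (limma adjusted p = 0.00177) in the first bin and by 0.25 (adjusted p = 0.000191) in the second, so the call depends on balancing. In that fit 43.1% of all bins were called. Over the alternatives and libraries left out, the other adjusted p-values stayed above the threshold of 0.05.

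**Figure D2:**
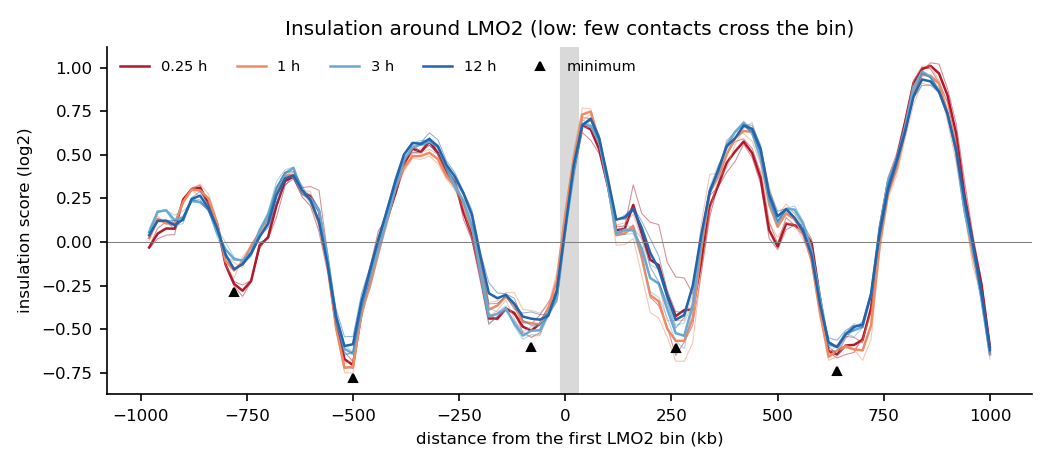
Insulation score (log2, vertical axis) against distance from the first LMO2 bin in kb (horizontal axis), with thin lines for the libraries, thick lines for the mean at each digestion time, triangles for the 5 minima and the LMO2 bins shaded. LMO2 sits on the slope between the minimum 80 kb downstream and the higher scores upstream of it.

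The stretch between the nearest dips, chr11:33820001-34140000, is 320 kb long and held a majority of the contacts that LMO2 had within the window. Inside it lay 68.4% and 65.4% of the contacts of both LMO2 bins within the window after 0.25 h, 69.2% and 66.1% after 1 h, 69.6% and 68.8% after 3 h, and 64.4% and 62.6% after 12 h. The 95% Wilson interval of 0.25 h replicate 1 was 65.8% to 70.9% and that of 12 h replicate 1 was 62.4% to 66.3%, counting error only. For replicate 2 the intervals were 61.8% to 68.7% and 60.4% to 64.7%, so they overlapped in both replicates. The pair that the LMO2 bins form with each other is counted from both bins. The 12 h values were the lowest, but no trend with log2 hours was found (rho -0.29, r -0.42, exact two-sided permutation p = 0.513 and 0.302, n = 8), a measure added after the data were seen.

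**Figure D3:**
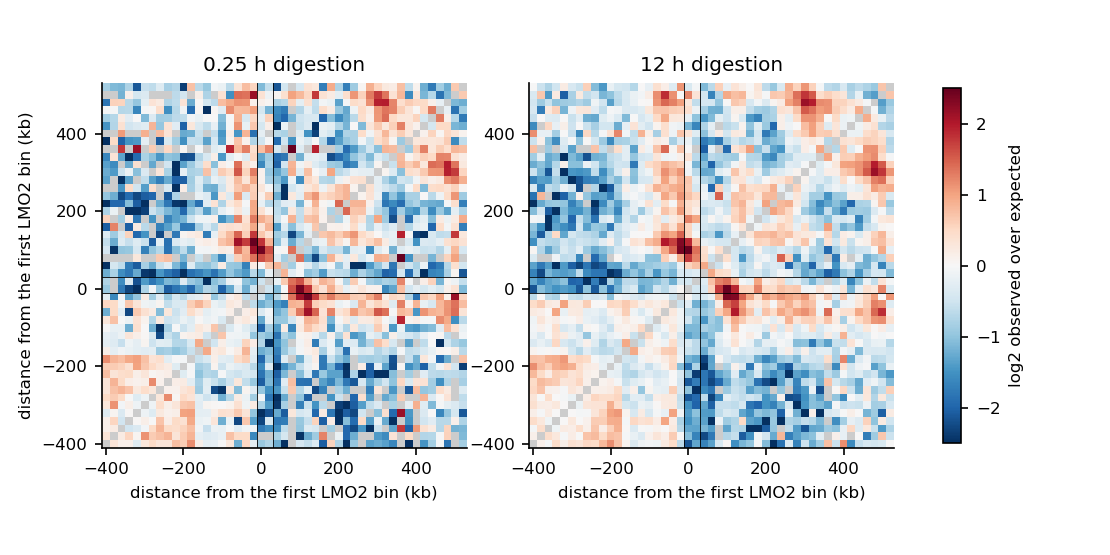
Contact map around LMO2 at 0.25 h (left) and 12 h (right), both axes in kb from the first LMO2 bin, colour for log2 observed over expected signal (mean of 2 libraries, colours end at 2.5 in both directions, grey for pairs with no signal and for the diagonal), thin lines for the edges of the LMO2 bins. At both times the first bin has its darkest red square 100 kb upstream, where the mean ratio over libraries is 5.81, and its squares at 40 to 200 kb downstream have a mean of 0.501 over all libraries.

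The contacts inside the first bin fell steeply with digestion time. Contacts whose ends both lie in one bin, called self contacts here, made up 27.3% and 36.7% of the first bin's cis contacts (those within chromosome 11) after 0.25 h, 23.1% and 25.1% after 1 h, 17.9% and 19.98% after 3 h, and 7.19% and 7.07% after 12 h. The 4 times did not overlap. In numbers these were 323 and 309 contacts after 0.25 h, 304 and 205 after 1 h, 275 and 230 after 3 h, and 115 and 101 after 12 h, so the number itself fell although the 12 h libraries were the deepest.

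The second bin had far fewer contacts inside it at the short times. Its self contacts were 8.28% and 4.74% of its cis contacts after 0.25 h, 7.73% and 7.98% after 1 h, 7.36% and 7.36% after 3 h, and 5.38% and 4.84% after 12 h. The 95% Wilson intervals at 0.25 h were 6.73% to 10.1% and 3.23% to 6.91%, so they overlapped only slightly, and replicate 2 rested on 25 self contacts. The median of the window's bins was 8.61% at 0.25 h and 5.50% at 12 h, and that of all bins was 9.65% and 5.32%. The first bin was at rank 7 of 100 in the window at 0.25 h and at rank 34 at 12 h, and the second at ranks 65 and 55. A high share at 0.25 h was not particular to the first bin: chr11:33920001-33940000, the bin next to LMO2 upstream, had 37.8% and 45.1%, and chr11:33840001-33860000 had 25.5% and 32.1%.

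For LMO2 as a whole, the log2 ratio of self to other cis contacts followed log2 hours with a rho of -0.98 and an r of -0.94 (exact two-sided permutation p = 0.000794 for each, the smallest that 2520 arrangements of 8 libraries can give, adjusted p = 0.00476 for rho over 6 measures). Taken alone, the first bin had a rho of -0.98 (exact permutation p = 0.000794, n = 8), while the second had a rho of -0.54 and an r of -0.38, which did not pass (exact permutation p = 0.190 and 0.340). Leaving out both 0.25 h libraries gave a Pearson's r of -0.97, and leaving out both 12 h libraries gave -0.91. By limma, the first bin's ratio was 2.59 higher (log2, SE 0.19) at 0.25 h than at 12 h, with an adjusted p of 2.34e-05 over all bins. In this contrast 71.7% of all bins passed, nearly all of them in this direction, and the median change was 0.81, so passing the test is not particular to LMO2.

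The size of the change was less common: 1.53% of the 122555 bins changed by at least as much, and the first bin had the largest change of the 96 tested bins of the window, whose median was 0.84. Of the steps, 3 h to 12 h passed in the first bin (1.59 higher at 3 h, adjusted p = 0.00135, with 64.2% of all bins called), while 0.25 h against 1 h (0.55, adjusted p = 0.209) and 1 h against 3 h (0.44, adjusted p = 0.956) did not, by limma. In those steps 0.0% of bins were called.

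The second bin's ratio was 0.34 higher (log2, SE 0.24) at 0.25 h than at 12 h, below the median of all bins, with a limma adjusted p of 0.220. The value depends on the 0.25 h libraries: without replicate 2 the difference was 0.75 (limma adjusted p = 0.00152), and without replicate 1 it was -0.07. Such a fit has 1 library at 0.25 h, which is assumed to vary like the other groups. The bins next to LMO2 changed by 0.99 (SE 0.19) at chr11:33860001-33880000 and by 1.65 (SE 0.17) at chr11:33920001-33940000, both past the threshold. The second bin's value is below that of either neighbour, a difference that was not tested. A small change was not particular to the second bin. Ordered from the largest change down, it was at rank 79 of the 96 tested bins of the window. The bin starting at 33940001, further upstream, changed by -0.03 (SE 0.18) and was at rank 92.

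The difference between the LMO2 bins, as the log2 self ratio of the first minus that of the second, was 2.77 ± 1.02 after 0.25 h, 1.88 ± 0.07 after 1 h, 1.54 ± 0.14 after 3 h and 0.51 ± 0.09 after 12 h (SD, n = 2 each). It fell with log2 hours (rho -0.98, r -0.90, exact two-sided permutation p = 0.000794 for each, n = 8). This comparison was added after the data were seen, and in the first run it did not pass (rho -0.54, exact permutation p = 0.190, n = 8). There the difference had the opposite sign in 8 of 8 libraries, at -1.14 ± 0.15 after 0.25 h, -1.11 ± 0.14 after 1 h, -1.12 ± 0.32 after 3 h and -1.65 ± 0.24 after 12 h (SD, n = 2 each). The first run's bins are 50 kb wide, and the one that holds the second LMO2 bin also holds chr11:33920001-33940000.

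**Figure D4:**
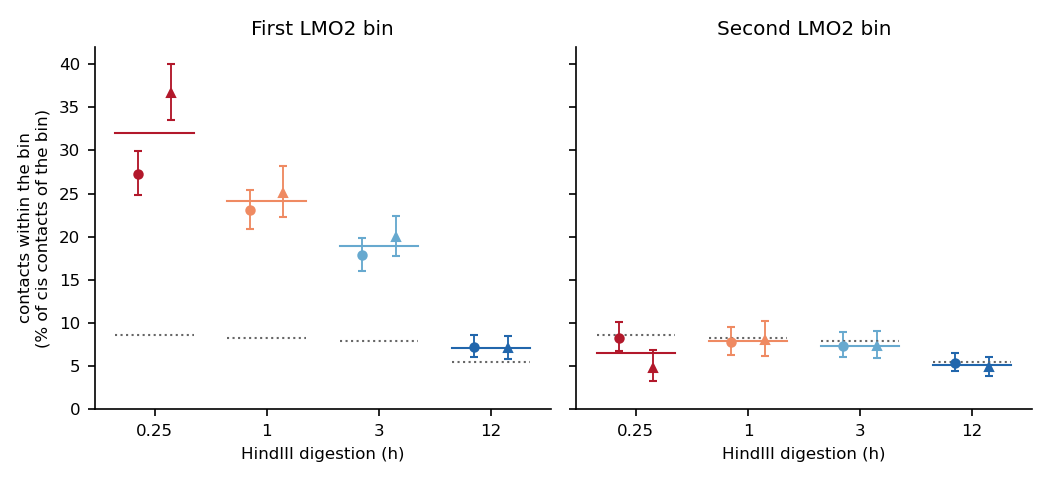
Self contacts in percent of the cis contacts (vertical axis) of the first LMO2 bin (left) and the second (right) by hours of HindIII digestion (horizontal axis), circles for replicate 1, triangles for replicate 2, error bars for the 95% Wilson interval, solid lines for the mean and dotted lines for the median of the window's 100 bins. The first bin goes from a mean of 32.0% at 0.25 h to 7.13% at 12 h. The means of the second stay between 5.11% and 7.86%, and its libraries run from 4.74% to 8.28%, both at 0.25 h.

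Contacts of LMO2 with other bins were counted in ppm of all such contacts in the library. The first bin had 10.6 and 12.8 ppm after 0.25 h, 11.5 and 11.1 after 1 h, 11.8 and 11.6 after 3 h, and 11.03 and 11.3 after 12 h. The second had 11.8 and 12.7, 11.9 and 12.2, 12.4 and 13.3, and 14.1 and 13.9 at the same times. The times overlapped in the first bin, while in the second both 12 h libraries lay above all others.

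By limma, the second bin's coverage was lower at 0.25 h than at 12 h by a log2 difference of -0.19 (SE 0.05, adjusted p = 0.00330), in a contrast in which 54.3% of all bins passed, 22.9% as higher and 31.4% as lower. The first bin differed by 0.07 (SE 0.06, adjusted p = 0.401), but by 0.20 (adjusted p = 0.00378) without 0.25 h replicate 1, by -0.07 (adjusted p = 0.327) without 0.25 h replicate 2, and by 0.29 (adjusted p = 0.00553) when self contacts were counted too. The fits without a 0.25 h replicate again assume that the lone library varies like the other groups. Over both bins there was no trend with log2 hours (rho 0.39, r 0.51, exact two-sided permutation p = 0.361 and 0.187, n = 8). That depends on 0.25 h replicate 2, the shallowest library: without it, rho was 0.97 (exact permutation p = 0.00317, n = 7).

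**Figure D5:**
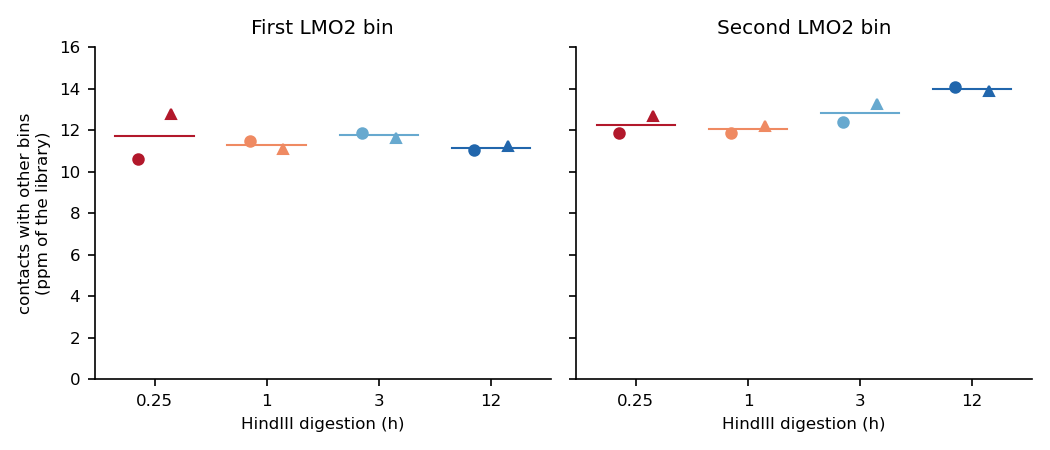
Contacts with other bins in ppm of the library's contacts between bins (vertical axis) for the first LMO2 bin (left) and the second (right) by hours of HindIII digestion (horizontal axis), circles for replicate 1, triangles for replicate 2 and lines for the mean. The second bin's 12 h libraries, at 14.1 and 13.9, are above its other libraries, and the first bin's libraries overlap.

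Contacts with other chromosomes were a larger share in the second bin than in the first. They made up 10.9% and 12.3% of the first bin's contacts with other bins after 0.25 h, 10.3% and 13.2% after 1 h, 10.5% and 11.4% after 3 h, and 13.6% and 13.2% after 12 h. In the second bin they were 14.7% and 16.6%, 17.1% and 15.4%, 16.5% and 16.1%, and 17.4% and 18.6%. The second bin was above the first in each of the 8 libraries, and in both bins the 12 h libraries were among the highest. Medians over all bins were between 11.6% and 12.7%.

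Relative to cis contacts, the trend over log2 hours was not past the threshold for rho (0.54, exact two-sided permutation p = 0.190, adjusted over 6 measures 0.571, n = 8), and Pearson's r was 0.70 (exact permutation p = 0.0492). Pearson's r was 0.06 without the 12 h libraries, so it rests on them. In limma the change at 0.25 h against 12 h was -0.23 (log2, SE 0.14, adjusted p = 0.499) in the first bin and -0.24 (SE 0.12, adjusted p = 0.399) in the second, and 0.00653% of all bins were called.

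Of the contacts within 1 Mb, those under 200 kb or at that limit made up 73.0% and 71.7% after 0.25 h, 75.7% and 73.1% after 1 h, 74.4% and 74.3% after 3 h, and 70.3% and 68.5% after 12 h for LMO2 as a whole. Median values over all bins were between 60.3% and 62.9%, so LMO2 had more of its contacts nearby than the typical bin. The 12 h libraries were the lowest, without a trend over all times (rho -0.29, r -0.45, exact two-sided permutation p = 0.513 and 0.266, n = 8). In limma the log2 change was 0.19 (SE 0.12, adjusted p = 0.348) in the first bin and 0.21 (SE 0.12, adjusted p = 0.314) in the second, the median of all bins was 0.12, and 1.33% of bins were called.

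No single contact of LMO2 was called as different between digestion times. Of the 197 pairs that an LMO2 bin forms in the window, 26 had a mean of at least 10 contacts and were tested, within a fit over all pairs of that depth in the genome, on log2 of observed over expected plus 0.1. Between 0.25 h and 12 h, 0 of the 26 passed by limma, where 1407 of all 1260330 pairs (0.112%) did. At an unadjusted p under 0.05 there were 6 of 26, against 7.0% of all pairs. The median difference was -0.12 over the LMO2 pairs and -0.03 over all pairs, and it was -0.01 without 0.25 h replicate 2.

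The 6 pairs were the first bin with the bins starting at 33840001 (log2 -0.81, SE 0.23, limma adjusted p = 0.344), 33860001 (-0.49, SE 0.15, adjusted p = 0.406), 33800001 (-0.65, SE 0.31), 33920001 (-0.58, SE 0.22) and 33940001 (-0.50, SE 0.23), and the second bin with that starting at 33800001 (0.78, SE 0.33). The adjusted p-values of the last 4 were between 0.60 and 0.711. In the first 5 the balanced value was lower at 0.25 h, and all of those partners are within 80 kb of the first bin. Balanced totals include self contacts, and the self share of the first bin fell with digestion time, but a link to these pairs was not tested. As shares of its contacts with other bins, those at 33840001 and 33940001 stayed lower in both 0.25 h libraries than in both 12 h libraries. Those at 33860001 and 33920001 overlapped, and 33800001 was not compared in this way.

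The strongest contact, the first bin with chr11:33980001-34000000, differed by -0.18 (log2, SE 0.12, limma adjusted p = 0.822) between 0.25 h and 12 h. As a share of the first bin's contacts with other bins, this pair was higher after 0.25 h, as given above. The second bin with the same partner differed by 0.22 (SE 0.19, adjusted p = 0.876), and the first bin with chr11:34000001-34020000 by -0.11 (SE 0.18, adjusted p = 0.947). These sizes are close to their errors, and a missed threshold does not show that the contacts were equal. The pair that the LMO2 bins form with each other stood at 0.715 ± 0.047 times the expected signal (SD, n = 8), with 29 to 78 contacts per library, and differed by -0.05 (SE 0.17, adjusted p = 0.978).

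In coverage over the 8 libraries, the bins of the window most like LMO2 were chr11:34340001-34360000 (Pearson's r 0.90), chr11:34160001-34180000 (0.90) and chr11:34180001-34200000 (0.80), of 98 compared. All 3 lie upstream of the stretch between the nearest dips. The libraries share their depth and digestion time, so this is a description only.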

How the data were processed

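Hi-C contacts of 8 K562 libraries, 2 at each of 4 digestion times, were deposited by the authors as balanced signal per pair of bins, in 16 files (2 sequencing runs each). Per the submitters' processing notes, HiC-Pro 2.11.1, Bowtie2 2.3.4.1 and build hg19 were used. Bin numbers were turned into hg19 positions in the order of chromosomes 1 to 22, X, Y and M. No hg19 annotation was used here, so neighbouring genes carry no positions. Each balanced signal is a whole number of contacts times a factor for each bin. The factors were recovered, and 100% of values, after rounding, came within 0.01 of a whole contact, a step checked on simulated matrices. Files of the second run list 89.0% to 89.1% of all bins. Balancing makes all bins equal in total, self contacts included, so coverage and shares were computed from recovered contacts and pair ratios from the signal.

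Bins with a mean of at least 500 contacts and pairs with a mean of at least 10 were tested with limma 3.58.1 (R 4.3.3). Fits used a trend, with Benjamini-Hochberg adjustment over all bins or pairs and a threshold of 0.05. Before log2, 1 contact was added for the ratios of a bin's contacts (self, other chromosomes, near and side) and 0.1 for pair ratios. Coverage had a smaller amount added, and insulation none. Trends of single values used exact permutation over 8 libraries with scipy 1.17.1 and numpy 2.4.6. The 95% Wilson intervals cover counting error within a library only and leave out the spread between libraries. PCR copies carry no molecular identifiers, so copies left among the contacts would not be seen. Same-numbered replicates deviated together in coverage (correlations of 0.12 to 0.27 in 6 of 6 pairs of times) and, by the same limit of 0.1, in 2 of 6 for self contacts (highest 0.13) and 0 of 6 for the other measures. The named partners were the 10 bins at least 40 kb away with the highest mean ratio, with the nearest and deepest insulation minima of prominence of at least 0.2 and the 3 bins most like LMO2 in coverage. Members and lists were chosen with earlier results of these data known. Alternatives covered the run, replicate block, each library left out, scaling, distance limits, filters, pseudocount and balancing.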

Additional observations from a re-analysis of the deposited data

How the results depend on the processing

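The trend of self contacts kept its direction and its side of the threshold in every alternative run (rho -0.97 in each of the 8 fits that left out 1 library, exact permutation p = 0.00317). The times did not overlap in this measure, so those 8 fits could return no other rho and cannot show stability. With the replicate number as a block, its exact permutation p was 0.00347, that of coverage 0.354, of contacts with other chromosomes 0.149, of near contacts 0.510, of the side ratio 0.951, of insulation 0.688, of the domain share 0.503, and 0 pairs were called; the block changed no call. Leaving out 1 library gave rho of 0.20 to 0.97 for coverage, 0.31 to 0.75 for other chromosomes, -0.46 to 0.055 for near contacts, -0.092 to 0.35 for the side ratio, -0.39 to 0.073 for insulation, -0.44 to 0.055 for the domain share, and -0.97 throughout for the difference between the LMO2 bins. In that difference too the times did not overlap, so its rho was fixed in advance. Of the trends that had missed the threshold, only coverage crossed it, without 0.25 h replicate 2. The rank correlation turned to -0.29 for coverage in the first run and to 0.049 for near contacts on the balanced signal. For the side ratio it turned to -0.15 within 500 kb, -0.29 on the balanced signal and -0.10 without partners under 100 kb. For insulation it turned to 0.10 with a 100 kb square, 0.049 with a 500 kb square and 0.73 in the first run, and in none of these did the exact permutation p pass. In the first run the trend of the difference between the LMO2 bins missed the threshold, at rho -0.54, and the difference itself had the opposite sign in 8 of 8 libraries. Ratios without balancing fell below 1 at the partners starting at 33960001 (0.479), 34060001 (0.726), 33220001 (0.377), 34120001 (0.871) and 34380001 (0.647). Among single-bin limma differences, insulation of the second bin turned to 0.25 without balancing. Uncalled values that turned were near contacts of the first bin (-0.039 with a 100 kb limit), the side ratio of the second (-0.030 within 500 kb, and -0.055 to 0.091 as each library was left out), insulation of the first (-0.015 with a 500 kb square), coverage of the first (-0.069 without 0.25 h replicate 2) and self contacts of the second (-0.072 without 0.25 h replicate 1). A fit without 1 library leaves its time with a lone library, which is assumed to vary like the other groups. The cause of each was not tested. For scaling, the median of ratios was run in place of TMM, because the unit is a signal. Depth limits pairs beyond about 200 kb, where most LMO2 pairs had under 10 contacts per library.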
